A study of Mus musculus with 6 samples.

Results

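The chaperone genes described here are 40 mouse genes, picked by symbol, of the 53465 genes in the count matrix, and all 40 were matched to a gene ID. They hold 10 genes that heat and other protein-damaging stress induce in many cell types, 3 further small heat shock proteins, 5 constitutive members of the Hsp70 and Hsp110 families, 4 constitutive J proteins with the Hsp70 cochaperone Bag1 (5 genes), Hsp90ab1 with 4 Hsp90 cochaperones (5 genes), 3 mitochondrial chaperones, 2 heat shock factors and 7 subunits of the CCT ring. Not all are cytosolic: Hspd1, Hspe1 and Hspa9 act in mitochondria and Hspa13 is tied to the endoplasmic reticulum. Of the 40, 39 passed the filter on low counts and Hspa1b did not.

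RNA came from endothelial cells of the cerebral cortex; the mice were male and 8 to 12 weeks old. All of the mice, controls included, were labelled tie2-Cre; ai9; rpl22HA/HA: the Tie2 promoter drives Cre in endothelium and also in some blood cells, ai9 is a fluorescent Cre reporter, and rpl22HA is a tagged ribosomal protein. The 2 groups received either PBS, a salt buffer that serves as the control, or pentylenetetrazol (PTZ), a blocker of GABA-A receptors that provokes seizures. Each group held 3 libraries, numbered 1, 2 and 4, and nothing in the labels says that these came from separate animals, so the spread behind the p-values is that of these libraries and may be technical. The sources used here do not state the dose, the time to collection or how the cells or ribosomes were isolated.

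Molecular chaperones bind unfolded or newly made proteins and help them fold. Hsp70 proteins work in cycles that J proteins start and nucleotide exchange factors such as Hsp110 and Bag proteins end, Hsp90 takes over clients such as kinases and steroid receptors, and the CCT ring encloses actin, tubulin and other substrates. Under stress the transcription factor Hsf1 leaves its complex with chaperones, binds heat shock elements, which are runs of alternating GAA and TTC units, and switches on the inducible genes, while constitutive members such as Hspa8 and Hsp90ab1 stay high at rest.

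Heat shock elements were looked up first, because they are the sequences through which the inducible genes are usually switched on. RefSeq promoters (GRCm38.p6) were matched by symbol for 32 of the 40 genes, and the 250 bases before each start site were searched for 2 adjoining units (GAANNTTC or TTCNNGAA, each of which reads the same on both strands) and for 3, a run in which such a pair is followed, after any 2 bases, by a further unit of the first kind, so that each run of 3 also holds both shorter motifs. A pair of units was found in 13 of the 32 genes (40.6%), against 14.5% of all 27025 genes in the table, and in 6 of 9 inducible genes. The run of 3 units was found in 3 of the 32 (Dnajb6, Hspd1 and Hspe1), against 0.514% of all genes. The 30 bases around the matches follow for 6 genes because they show how the matches differ in number and length, 5′ to 3′ on the coding strand, with the matched units in capitals. They lie at chr17:34972242-34972271 (Hspa1a, minus strand), chr17:34959324-34959353 (Hspa1b, minus), chr5:135887801-135887830 (Hspb1, plus), chr5:149636351-149636380 (Hsph1, minus), chr5:29735844-29735873 (Dnajb6, plus) and chr1:55088053-55088082 (Hspe1, plus).
Hspa1a: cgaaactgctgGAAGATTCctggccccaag
Hspa1b: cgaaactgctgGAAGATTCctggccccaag
Hspb1: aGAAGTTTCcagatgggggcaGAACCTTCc
Hsph1: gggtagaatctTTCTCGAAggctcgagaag
Dnajb6: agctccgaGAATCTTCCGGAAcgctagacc
Hspe1: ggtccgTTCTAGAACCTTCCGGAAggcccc
The Hspe1 stretch is also the Hspd1 element, read on the opposite strand. It lies inside the annotated Hspd1 gene, upstream of an inner start site, and the window of the outer start site (chr1:55088244-55088493) held no pair. Hspd1 and Hspe1 are thus not separate cases in the counts above, and neither are Hspa1a and Hspa1b, whose printed stretches are identical. Dnajb6 and Hspe1 carry the longer runs, and Hspb1 carries separate pairs 117 and 97 bases before its start site. A match is a description of letters and not of a bound site, and a promoter without one may hold elements in other spellings or further away.

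Whole upstream windows are given for 2 inducible genes with a pair of units, Hspa1a, among the lowest of the 40 genes, and Hspb1, among the highest. They span chr17:34972157-34972406 on the minus strand and chr5:135887669-135887918 on the plus strand, 5′ to 3′, with pairs of units in capitals.
Hspa1a: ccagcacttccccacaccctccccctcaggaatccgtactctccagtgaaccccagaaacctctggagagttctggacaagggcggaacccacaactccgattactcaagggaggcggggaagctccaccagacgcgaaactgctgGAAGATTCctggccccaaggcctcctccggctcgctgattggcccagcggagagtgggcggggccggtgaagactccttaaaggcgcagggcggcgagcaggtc
Hspb1: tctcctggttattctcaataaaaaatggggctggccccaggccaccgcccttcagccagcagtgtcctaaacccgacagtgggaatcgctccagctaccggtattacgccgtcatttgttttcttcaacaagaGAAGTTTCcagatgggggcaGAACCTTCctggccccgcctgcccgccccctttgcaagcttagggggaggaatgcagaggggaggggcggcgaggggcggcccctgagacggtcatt
The window of Hspa1b matched that of Hspa1a at 247 of 250 positions (98.8%). The genes themselves are also close copies: of all 50-base stretches of the longest Hspa1b transcript, 62.3% occur in Hspa1a as well. Reads from such stretches fit more than 1 place, and the sources used here do not state how they were counted, so the levels of both genes are uncertain.

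Gene counts summed to 11107481 to 15406967 per library. Endothelial markers were present in every library, with the summed level of 10 markers (Pecam1 and Cldn5 among them) at 13851 to 20718 CPM in PBS and 13430 to 25607 CPM in PTZ, where CPM are the reads of a gene as a share of the library, scaled to a fixed total and then by TMM, a scaling between libraries. PTZ-1 stood apart in having 9.34% of its reads outside annotated genes, against 2.99% in PBS-1 and up to 5.19% in the others. Markers of some other cells shared a sign. All 9 tested of 10 genes of pericytes and smooth muscle had a positive log2 fold change (summed level 198 to 565 CPM in PBS, 343 to 1098 CPM in PTZ), as did all 6 of fibroblasts (81.7 to 143 CPM and 84.0 to 261 CPM). All 7 of microglia (2235 to 2687 CPM and 1462 to 2247 CPM) had a negative value, and 4 of 5 of neutrophils did (172 to 523 CPM and 70.5 to 317 CPM). Over all genes tested, 52.7% had a positive and 47.3% a negative value. All 5 of red cells were negative as well, though with a median of only -0.05, and 4 of 5 tested were positive in astrocytes and in neurons. In each of these types the ranges of the 2 groups overlapped, and no marker passed the adjusted threshold of the edgeR test described below. No marker was at 0 in all libraries. Their part in the results below was not tested, and fewer cells of a type cannot be told apart from less RNA per cell.

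Setting PTZ against PBS asks how these genes differ in brain endothelium after a convulsant. No chaperone gene passed the threshold: in edgeR's quasi-likelihood test 0 of 39 passed as higher and 0 as lower (adjusted p below 0.05), where the share called over all 13768 genes tested was 0.0% in each direction, and DESeq2 called 0 of 40 (0.348% of genes called higher and 0.256% lower over all genes it adjusted). The smallest adjusted p of a chaperone gene in edgeR was 0.625, for Dnajb6. At an unadjusted p under 0.05 stood 2 of the 39, Dnajb6 and Hspa9, both higher in PTZ, where 3.83% of all genes were higher at that level, and 0 were lower, where 3.38% of all genes were. Log2 fold changes (PTZ against PBS) were positive in 29 of 39, against 52.7% of all genes, and negative in 10, against 47.3% of all genes, with a median of 0.14 beside 0.03 over all genes. They ran from -0.39 (Chordc1) to 0.88 (Hsf2).

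**Figure D1:**
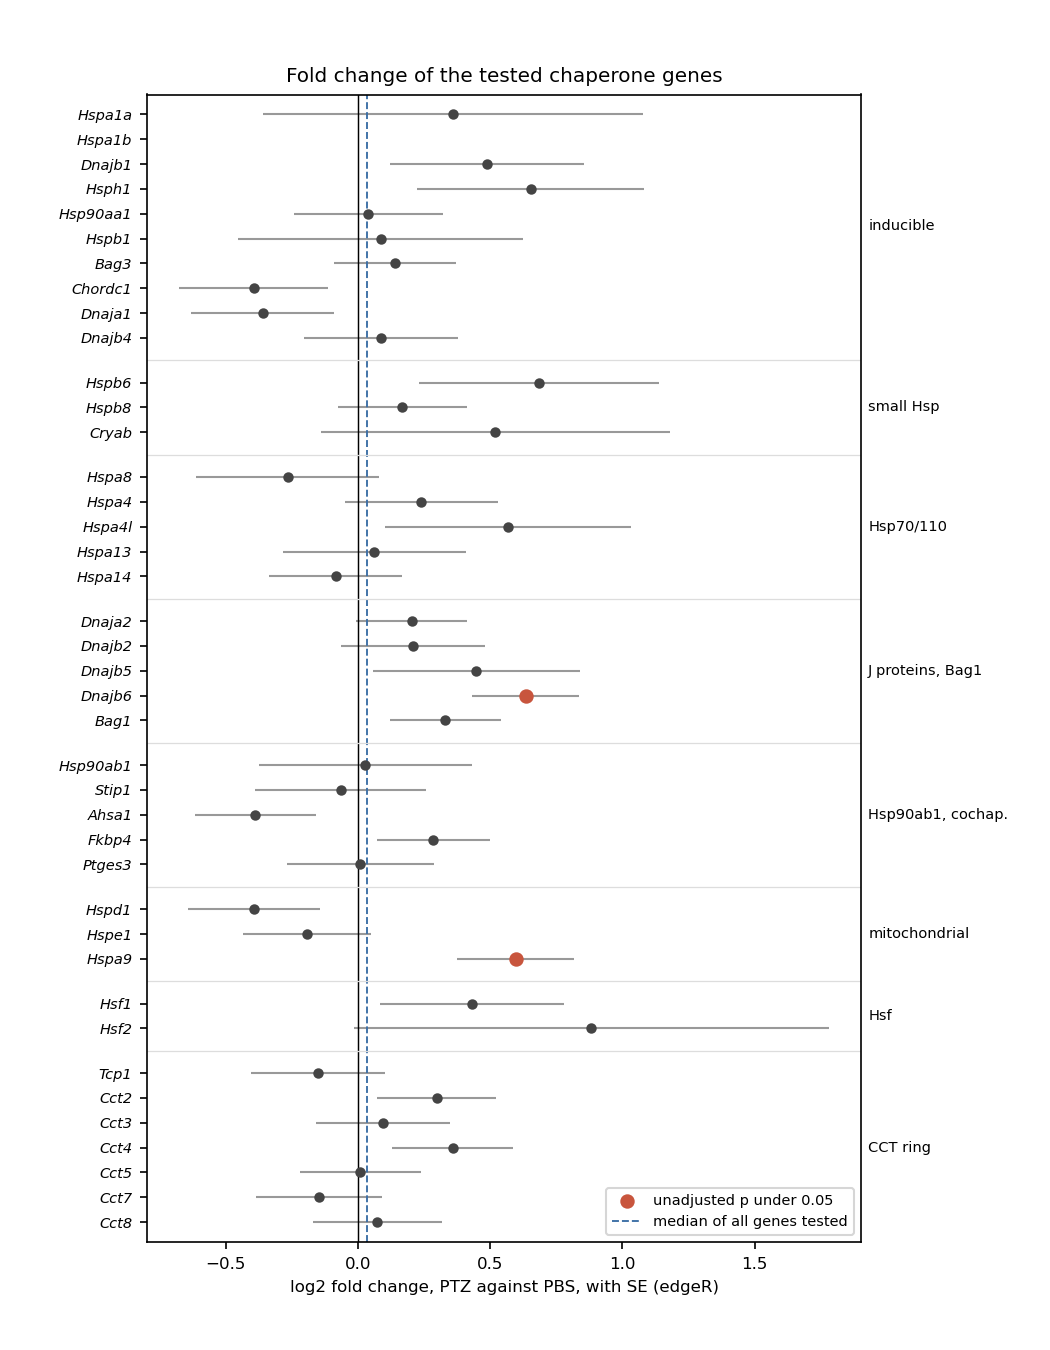
Log2 fold change of PTZ against PBS for the 39 tested chaperone genes, by role, as points with bars of 1 SE on each side from edgeR. The dashed line marks the median of all genes tested (0.03), the red points mark Dnajb6 (0.63) and Hspa9 (0.60), and Hspa1b has no point because it did not pass the filter on low counts.

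The inducible genes differed more between libraries than between the groups. Of 9 tested, 7 had a positive log2 fold change and 2 a negative one, with a median of 0.09 and no member at an unadjusted p under 0.05, and in none did the groups stand apart. Their summed level was 1359, 2334 and 1987 CPM in PBS-1, PBS-2 and PBS-4 and 2019, 2006 and 1707 CPM in PTZ-1, PTZ-2 and PTZ-4. The PTZ libraries thus lay inside the range of the PBS libraries, whose lowest and highest were PBS-1 and PBS-2. Abundant genes carry this sum: Hsp90aa1 averaged 939 CPM in PBS and 965 CPM in PTZ, and Hspa1a 5.20 and 6.64 CPM. The sum therefore says little about the inducible genes of low level.

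Hspa1a (ENSMUSG00000091971, protein coding, chromosome 17, 34969190 to 34972156 on the minus strand, GRCm38), which encodes the classical stress-inducible Hsp70, stood at 3.50, 10.1 and 2.04 CPM in PBS-1, PBS-2 and PBS-4 and at 11.4, 3.67 and 4.82 CPM in PTZ-1, PTZ-2 and PTZ-4. These levels rest on 56, 102 and 27 reads in PBS and 156, 37 and 77 in PTZ. PTZ-1 and PBS-2 were the high libraries, 1 in each group, and the log2 fold change was 0.36 (SE 0.72, edgeR adjusted p = 0.941), turning to -0.28 without PTZ-1 and to -0.06 without PBS-4. Its copy Hspa1b (chromosome 17, 34956436 to 34959238, minus strand) stood at 0.312, 1.18 and 0.756 CPM in PBS and 3.07, 0.695 and 0.626 CPM in PTZ, from 5, 12 and 10 reads and 42, 7 and 10 reads. As for Hspa1a, PTZ-1 was highest and PBS-2 was the highest PBS library. Both genes share most of their sequence, so they are not independent observations. On the opposite strand Gm20481 overlaps 19% of the exonic bases of Hspa1a, a further limit on its level.

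Partners of the inducible Hsp70 gave mixed values. Dnajb1, the J protein that works with it, stood at 47.1, 147 and 77.8 CPM in PBS and 97.7, 131 and 152 CPM in PTZ, a log2 fold change of 0.49 (SE 0.37, edgeR adjusted p = 0.793). PBS-2 lay among the PTZ libraries and the other 2 PBS libraries lay below all 3. Without PBS-2 the value was 0.99 and without PBS-1 it was 0.18, so it rests on which PBS library is kept. Hsph1, an Hsp110 that recharges Hsp70 with nucleotide, stood at 29.5, 47.2 and 66.4 CPM in PBS and 129, 40.0 and 55.8 CPM in PTZ. Only PTZ-1 lay above the PBS range, and the log2 fold change of 0.65 (SE 0.43, edgeR adjusted p = 0.770) was 0.01 without that library. Bag3, which links Hsp70 and small heat shock proteins to autophagy, stood at 42.0, 57.7 and 43.1 CPM in PBS and 55.1, 56.7 and 45.4 CPM in PTZ (0.14, SE 0.23), with overlapping groups. Dnajb4, another J protein, stood at 19.7, 20.8 and 16.3 CPM in PBS and 21.6, 16.7 and 22.2 CPM in PTZ (0.09, SE 0.29), also with overlapping groups.

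The inducible Hsp90 and small heat shock protein genes were abundant and did not separate by group. Hsp90aa1, the stress-responsive Hsp90, stood at 658, 1050.5 and 1107 CPM in PBS and 1023, 981 and 891 CPM in PTZ (log2 fold change 0.04, SE 0.28), with PBS-1 as the 1 low library, and 58.5% of its 50-base stretches recur in other annotated genes. Hspb1, a small heat shock protein that holds unfolded proteins and binds actin, stood at 142, 588 and 180.0 CPM in PBS and 221, 537 and 208 CPM in PTZ (0.09, SE 0.54). With the replicate number as a block in the fit, Hspb1 was at 0.24 (SE 0.20, edgeR adjusted p = 0.678). It was high in both libraries numbered 2 and low in the other 4. The summed level of red cell markers was also highest in PBS-2 and PTZ-2 (10852 and 11683 CPM, 5788 to 7338 CPM in the others), as was that of the endothelial markers (20718 and 25607 CPM). The same held for the neuron markers (64.1 and 80.4 CPM, 15.2 to 28.2 CPM in the others). The part of any of these cells in the Hspb1 level was not tested. Of all 50-base stretches of Hspb1, 51.6% recur in an annotated pseudogene, Hsp25-ps1.

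The 2 inducible genes with negative values were Chordc1, an Hsp90-binding protein, and Dnaja1, a J protein with a lipid anchor. Chordc1 stood at 91.1, 79.2 and 85.9 CPM in PBS and 95.7, 49.9 and 49.3 CPM in PTZ (-0.39, SE 0.28, edgeR adjusted p = 0.779), and Dnaja1 at 325, 332 and 407 CPM in PBS and 362, 189.5 and 278 CPM in PTZ (-0.36, SE 0.27). In both, PTZ-2 and PTZ-4 lay below every PBS library and PTZ-1 did not. Without PTZ-1 the values were -0.78 for Chordc1 and -0.60 for Dnaja1. Without PTZ-4 Chordc1 was at -0.23, and without PTZ-2 Dnaja1 was at -0.19. At an unadjusted p under 0.05 stood 3 of 40 as lower in the fit without PTZ-1 (Chordc1, Dnaja1 and Hspd1), where 3.17% of all genes did, and none passed after adjustment. The level of Dnaja1 is uncertain, since 28.8% of its 50-base stretches recur in other annotated genes and other genes overlap 10.8% of its exonic bases.

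**Figure D2:**
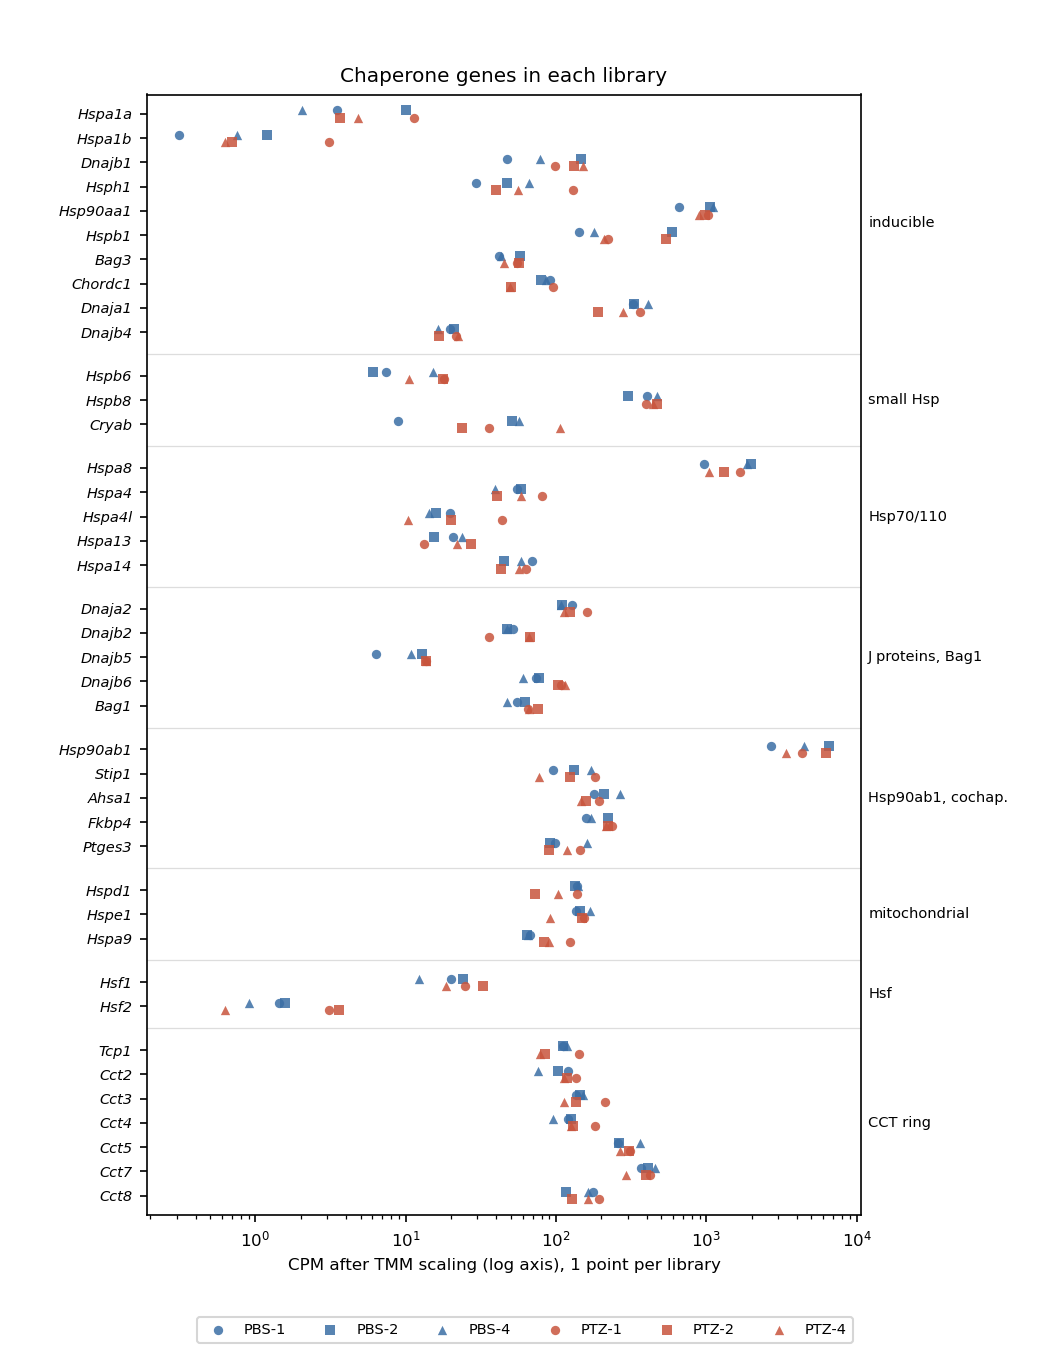
CPM after TMM scaling (log axis) of the 40 chaperone genes, 1 point per library, PBS in blue and PTZ in red, with the replicate number as the shape of the point. Hspa1a and Hspa1b vary most among the inducible genes, with PTZ-1 highest in both, while the points of Dnajb6 and Hspa9 do not overlap between the groups.

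The libraries of equal number were compared next, because deviations from the group means went together within each number (correlations across genes of 0.167, 0.197 and 0.217 for numbers 1, 2 and 4). Within number 1, 35 of the 39 chaperone genes were higher in PTZ, against 52.7% of all genes, with a median log2 difference of 0.55 beside 0.05 over all genes. Within number 2 it was 18 of 39, against 50.5% of all genes (median -0.03), and within number 4 it was 17 of 39, against 49.5% (median -0.07). The 9 inducible genes were all higher in PTZ-1 than in PBS-1 (median 0.63), all lower in PTZ-2 than in PBS-2 (median -0.24), and 5 of 9 were higher in PTZ-4 than in PBS-4 (median 0.07). Over all 39 genes the positive values outnumbered the negative ones in number 1 and not in numbers 2 and 4. The 9 genes share their libraries, so they are not 9 replicates, and 1 library that stands low or high moves all of them.

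**Figure D3:**
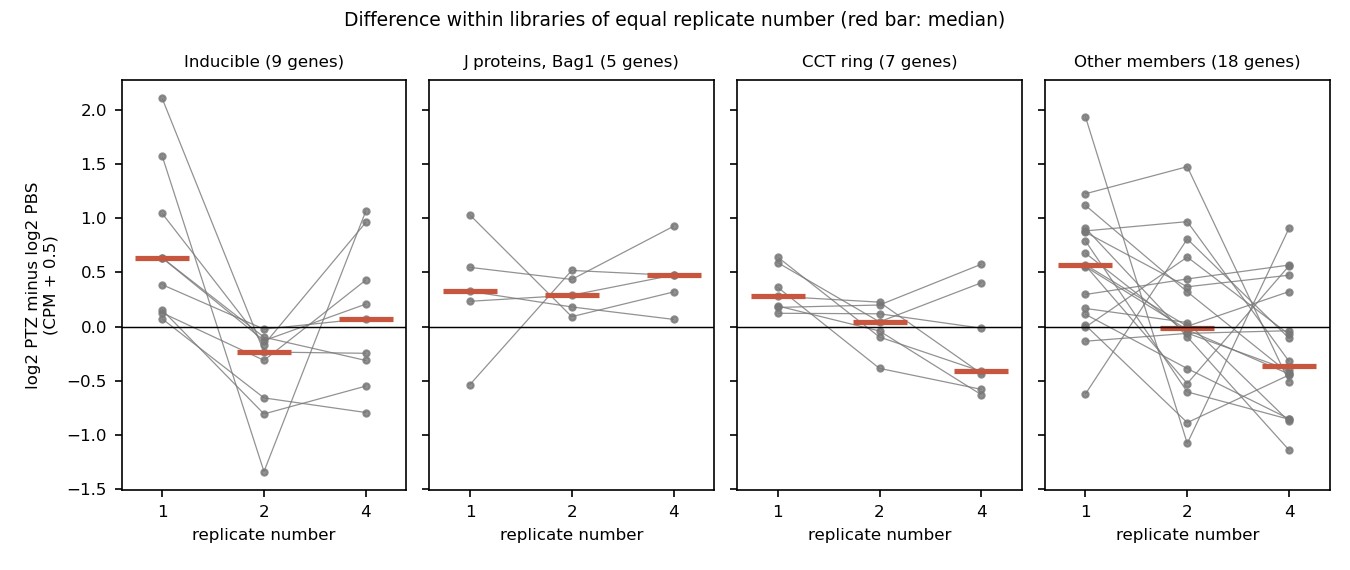
Difference of log2 (CPM + 0.5) between the PTZ and PBS library of equal replicate number, 1 point per gene and number, lines joining the points of a gene and red bars for the median of its set. The inducible genes lie above 0 in number 1 and below it in number 2, while the median of the J proteins and Bag1 stays above 0 in all 3 (0.32, 0.29 and 0.47).

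The highest and lowest libraries of each gene were then counted. PTZ-1 was the highest of the 6 libraries for 15 of 39 chaperone genes (38.5%), against 22.7% of all genes, PBS-4 for 8, against 19.1%, and PBS-1 was the highest for 1 (2.56%), against 13.0%. PBS-1 was the lowest for 11 of 39, against 15.8% of all genes, PBS-4 for 9, against 18.9%, and PTZ-4 for 9, against 14.2%. PTZ-1 is the library with the highest share of reads outside genes and PBS-1 the one with the lowest, as given above, and the part of this in the levels was not tested.

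**Figure D4:**
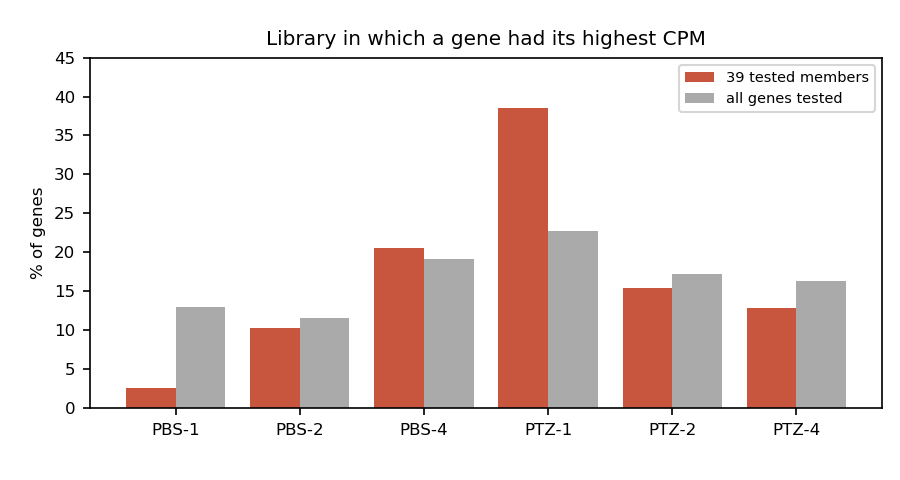
Share of genes, in percent, whose highest CPM fell in each of the 6 libraries, for the 39 tested chaperone genes (red bars) and all genes tested (grey bars). PTZ-1 holds 38.5% of the chaperone genes and 22.7% of all genes, and PBS-1 holds 2.56% and 13.0%.

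Among the constitutive J proteins and Bag1 all 5 had a positive log2 fold change (median 0.33), and in 3 of them the lowest PTZ library exceeded the highest PBS library. Their summed level was 315, 307 and 274 CPM in PBS and 382, 384 and 374 CPM in PTZ (means 299 and 380 CPM). Within this sum the largest difference of means was that of Dnajb6 (70.2 and 109 CPM), whose level is uncertain, and the groups overlapped for Dnaja2 and Dnajb2. The median log2 fold change of the set was 0.21 without PBS-4, 0.22 without PTZ-2 and 0.45 without PTZ-1. Over all chaperone genes the groups stood apart in this direction in 4 of 39, where 7.3% of all genes did, and in 0 in the other direction, where 7.04% of all genes did. With a background of that size, 4 of 39 is not a result about the chaperone genes as a set.

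Dnajb6 (ENSMUSG00000029131, a protein-coding gene on the plus strand of chromosome 5, from 29735688 to 29818134), a J protein known for holding back aggregation of polyglutamine proteins, stood at 73.9, 76.5 and 60.2 CPM in PBS and 108, 104 and 115 CPM in PTZ. Every PTZ library lay above every PBS library, and the means were 109 ± 5.70 and 70.2 ± 8.74 CPM (SD, n = 3 each). The log2 fold change was 0.63 (SE 0.20), a 1.55-fold difference, with an unadjusted p of 0.00993 and an edgeR adjusted p of 0.625. It is 1 of the 3 genes with the 3-unit heat shock element shown above, and the values of the other 2, Hspd1 and Hspe1, follow with the mitochondrial chaperones. Of its 50-base stretches 42.8% recur in other annotated genes, Gm2541 most often, and an annotated gene on the opposite strand, Gm5129, overlaps 4.11% of its exonic bases, so its level is uncertain.

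Bag1, which recharges Hsp70 with nucleotide, stood at 55.1, 61.7 and 47.5 CPM in PBS and 64.9, 75.5 and 66.2 CPM in PTZ (log2 fold change 0.33, SE 0.21, edgeR adjusted p = 0.764), with 0.21 without PBS-4 and 0.22 without PTZ-2. None of its 50-base stretches recurs in another annotated transcript. Dnajb5, a low-level J protein, stood at 6.37, 12.7 and 10.9 CPM in PBS and 13.5, 13.6 and 13.7 CPM in PTZ (0.45, SE 0.39, or 0.20 without PBS-1), where the gap between PBS-2 and the lowest PTZ library was under 1 CPM. The groups overlapped for Dnaja2, a close relative of Dnaja1 (109 to 127 CPM in PBS, 114 to 159.8 CPM in PTZ), and for Dnajb2, a J protein with ubiquitin-binding motifs (46.9 to 52.0 CPM and 35.7 to 67.4 CPM). Within equal numbers, 4 of the 5 were higher in PTZ in all 3 comparisons, the exception being Dnajb2 in number 1. Over all 39 chaperone genes 9 were higher in all 3, where 18.5% of all genes were, and 1 was lower in all 3, where 16.6% of all genes were.

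The mitochondrial chaperones differed in sign, with 1 positive and 2 negative values. Hspa9 (ENSMUSG00000024359, protein coding, chromosome 18, minus strand), the mitochondrial Hsp70 that pulls imported proteins into the matrix, stood at 67.4, 64.0 and 64.8 CPM in PBS and 124, 82.7 and 90.3 CPM in PTZ. The groups did not overlap, the PBS libraries lay close together, and the log2 fold change was 0.60 (SE 0.22, unadjusted p = 0.0216, edgeR adjusted p = 0.648). Hspd1, the mitochondrial chaperonin Hsp60, stood at 137, 134 and 141 CPM in PBS and 138, 72.0 and 103 CPM in PTZ (-0.39, SE 0.25, edgeR adjusted p = 0.764). Its lid protein Hspe1 stood at 136, 145 and 168 CPM in PBS and 152, 148 and 91.4 CPM in PTZ (-0.19, SE 0.24). Without PTZ-2 Hspd1 was at -0.23, and without PTZ-4 Hspe1 was at 0.0039. Both have overlapping groups, and their low libraries differ. PTZ-2 was lowest for Hspd1 and PTZ-4 for Hspe1, although the same element lies upstream of a start site of each. Their exons overlap on opposite strands by 112 bases, which is 4.24% of Hspd1 and 7.6% of Hspe1. In Hspd1, 44.8% of 50-base stretches recur in other annotated genes, mostly in the pseudogene Hspd1-ps3, and 8.2% do in Hspe1.

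The constitutive Hsp70 and Hsp110 genes had a median log2 fold change of 0.06, with 3 positive and 2 negative and no group separation. Hspa8, the everyday Hsp70 that also uncoats clathrin vesicles, stood at 968, 1986 and 1876 CPM in PBS and 1675, 1306 and 1035 CPM in PTZ (-0.27, SE 0.34, edgeR adjusted p = 0.893). PBS-1 was the lowest of all 6 libraries, below every PTZ library, and PBS-2 the highest. The value was -0.53 without PBS-1 and -0.12 without PTZ-4. Of its 50-base stretches 52.7% recur in other annotated genes, so its level is uncertain. Per base of annotated exon, Hspa8 outweighed Hspa1a 191, 136 and 634 times in PBS-1, PBS-2 and PBS-4 and 101, 245 and 148 times in the PTZ libraries, so the constitutive gene was far higher in every library, within the uncertainty of both counts. The Hsp110 genes Hspa4 and Hspa4l reached their highest level in PTZ-1 (81.1 and 43.5 CPM), with the other 5 libraries at 39.4 to 58.3 CPM and 10.4 to 19.9 CPM. Hspa13 ran from 13.2 to 27.2 CPM and Hspa14, a ribosome-associated Hsp70, from 42.8 to 69.4 CPM over the 6 libraries.

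Hsp90ab1, the constitutive Hsp90, was the most abundant chaperone gene per length, at 1519.8 CPM per kilobase of exon in PBS and 1549.6 in PTZ, ahead of Hspa8 (374 and 311), Hspb1 (294 and 312), Hsp90aa1 (239 and 245) and Hspb8 (199 and 224). Among the PBS libraries, neighbours in this order from Hspa8 on to Hspb8 differed by less than the SD of the more variable of the pair. Its level was 2706, 6495 and 4473 CPM in PBS and 4331, 6228 and 3383 CPM in PTZ (log2 fold change 0.03, SE 0.40), and both libraries numbered 2 were again the highest. Its ratio to Hsp90aa1 per length was 5.39, 8.10 and 5.30 in PBS-1, PBS-2 and PBS-4 and 5.55, 8.32 and 4.98 in the PTZ libraries of the same numbers, so it varied with the number and hardly with the group. Of the 50-base stretches of Hsp90ab1, 4.49% recur in other annotated genes, against 52.7% in Hspa8, 51.6% in Hspb1 and 58.5% in Hsp90aa1. Both the order and the size of the ratio are therefore uncertain.

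Of the Hsp90 cochaperones none separated the groups. Ahsa1, which speeds up the ATPase of Hsp90, stood at 178, 208 and 266 CPM in PBS and 192, 159 and 147 CPM in PTZ (-0.39, SE 0.23, edgeR adjusted p = 0.742). Fkbp4, an immunophilin of steroid receptor complexes, stood at 158, 222 and 171 CPM in PBS and 235, 222 and 214 CPM in PTZ (0.29, SE 0.21), with PBS-2 inside the PTZ range. Stip1, the adaptor that hands clients from Hsp70 to Hsp90, ran from 95.7 to 171 CPM in PBS and from 77.2 to 180.2 CPM in PTZ, and Ptges3, the p23 cochaperone, from 90.9 to 162 CPM and from 89.0 to 145 CPM. In both the groups overlapped.

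The small heat shock proteins outside the inducible group had positive values with wide errors. Hspb8, the partner of Bag3, was the steady and abundant one at 400.4, 299.7 and 466 CPM in PBS and 399, 468 and 443 CPM in PTZ (0.17, SE 0.24). Hspb6, a small heat shock protein of muscle cells, stood at 7.37, 6.02 and 15.3 CPM in PBS and 17.9, 17.7 and 10.6 CPM in PTZ (0.69, SE 0.45, edgeR adjusted p = 0.770). Markers of pericytes and smooth muscle summed to 198, 306 and 565 CPM in PBS and 1098, 343 and 1018 CPM in PTZ, and their part in the Hspb6 level was not tested. Cryab, alphaB-crystallin, ranged from 8.93 CPM in PBS-1 to 107 CPM in PTZ-4, with 50.7 and 56.6 CPM in PBS-2 and PBS-4 and 35.6 and 23.7 CPM in PTZ-1 and PTZ-2 (0.52, SE 0.66), a 12.0-fold span that was the widest of the 39 tested genes. On the opposite strand Hspb2 overlaps 17% of the exonic bases of Cryab.

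Both heat shock factors were low. Hsf1, the master regulator of the response, stood at 20.1, 24.1 and 12.2 CPM in PBS and 24.8, 32.9 and 18.4 CPM in PTZ (0.43, SE 0.35, edgeR adjusted p = 0.808), higher in PTZ within each number but with overlapping groups. Hsf2, its developmental relative, rested on 23, 16 and 12 reads in PBS and 42, 36 and 10 in PTZ (0.88, SE 0.90), with PTZ-4 the lowest of the 6 libraries.

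In the CCT ring no subunit separated the groups: 5 of 7 subunits had a positive and 2 a negative log2 fold change, from -0.15 to 0.36 with a median of 0.07, and none was at an unadjusted p under 0.05. Their summed level was 1291, 1274 and 1417 CPM in PBS and 1599, 1300 and 1152 CPM in PTZ, so PTZ-1 and PTZ-4 lay on either side of the PBS range. PTZ-1 was the highest library for 5 of the 7 and PBS-4 for the other 2, Cct5 and Cct7. All 7 were higher in PTZ within number 1, 4 within number 2 and 2 within number 4. Cct4 had the largest value, at 121, 126 and 94.9 CPM in PBS and 182, 129.8 and 126 CPM in PTZ (0.36, SE 0.23, edgeR adjusted p = 0.764), and its lowest PTZ library was level with its highest PBS library. Without PTZ-1 the value was 0.17, and without PBS-4 it was 0.21. Cct7 stood at 369.8, 409.6 and 454 CPM in PBS and 422, 398 and 293 CPM in PTZ (-0.15, SE 0.24). Cct6a, a further subunit that is not among the 40 genes, stood at 153, 114 and 166 CPM in PBS and 176, 97.4 and 129 CPM in PTZ, with overlapping groups and PTZ-1 again highest. Set side by side, the median log2 fold changes were 0.09 for the inducible genes, 0.07 for the ring and 0.21 for the 23 genes in neither, and no test of the difference between these sets was made. With libraries left out, the inducible median ran from -0.0398 (without PBS-4) to 0.27 (without PBS-2) and that of the ring from -0.0966 (without PBS-2) to 0.13 (without PTZ-2), so neither has a settled sign. Under the authors' scaling the median of the ring was -0.0004.

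A further 45 genes of the chaperone network, listed by function, were all tested, and 0 passed. Of these 21 had a positive and 24 a negative log2 fold change (median -0.05), and at an unadjusted p under 0.05 stood 2 higher and 2 lower, against the 3.83% and 3.38% of all genes given above. Higher were Cdc37l1, a relative of the kinase cochaperone Cdc37, at 35.8, 36.0 and 32.8 CPM in PBS and 68.3, 43.7 and 59.0 CPM in PTZ (0.71, SE 0.24, edgeR adjusted p = 0.648), and Bag6, a holder of proteins bound for membranes or for degradation, at 92.3, 112 and 59.3 CPM and 127, 149.8 and 129 CPM (0.62, SE 0.25). Lower were Hspb11, which despite its name is a part of the intraflagellar transport machinery, at 25.5, 24.4 and 15.6 CPM in PBS and 10.4, 13.3 and 9.95 CPM in PTZ (-0.96, SE 0.34), and the Hsp90-binding immunophilin Ppid at 75.8, 55.5 and 74.5 CPM and 52.4, 40.3 and 49.7 CPM (-0.53, SE 0.23). In all 4 the groups did not overlap, and over the 45 genes this held for 6 higher and 6 lower, against 7.3% and 7.04% of all genes.

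The estimated biological coefficient of variation of the 6 libraries was 0.47, and a p that misses the threshold does not show that a gene was equal in both groups.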

How the data were processed

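Counts were analysed for 3 PBS and 3 PTZ libraries, grouped by the sample titles. The authors deposited raw read counts per Ensembl gene for 53465 genes, per the file headers, with 5 summary rows that name no gene (16.1% to 22.9% of reads per library), which were left out. A scaled signal deposited by the authors for each library is the count divided by 1 factor per library (largest deviation 1.3e-05 reads), and served only as an alternative scaling. Per the submitters' processing notes, the build was GRCm38 and the tools included TopHat2 2.1.1, HTSeq, CASAVA and edgeR. The sources used here do not state the annotation release, the strand setting or how reads with several mapping places were treated. Of the 40 genes, 10 have exons overlapped by a gene on the opposite strand in GENCODE M21, from which coordinates and exon lengths were taken, and 9 share at least 20% of their 50-base stretches with other annotated transcripts.

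Of 34777 genes with any read, 13768 passed filterByExpr at a count of 10 and a total of 15. After TMM scaling (0.864 to 1.14), all 6 libraries entered 1 fit with group as the factor, in edgeR 4.0.16 (quasi-likelihood, 2-sided, Benjamini-Hochberg over all genes, threshold 0.05) in R 4.3.3. The SE is the fold change over the root of its F statistic. Alternatives used DESeq2 1.42.0 and limma 3.58.1, other scalings, no filter, the replicate number as a block and each library left out. The numbers 1, 2 and 4 come from the titles and were taken to pair the libraries because every correlation of deviations was over 0.1. No 2 libraries of a group were alike within sampling noise (chi-square per degree of freedom 43.8 to 99.1). The test was tried on simulated counts of 13768 genes, with the shares found given above, and it called 5 unchanged genes.

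The genes, role groups and lists were chosen with earlier results of these data known. CPM of every library are given for the inducible genes and for other members of the 40 at an unadjusted p under 0.05 or with groups that do not overlap, and of the 45 further genes for those at an unadjusted p under 0.05. The remaining genes with values of each library were picked by role after their values were seen. Within-number differences used a pseudocount of 0.5 CPM.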

Additional observations from a re-analysis of the deposited data

How the results depend on the processing

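No chaperone gene was called, higher or lower, in any of the 12 alternatives (0 in each, also 0 and 0 when libraries were left out), and the smallest adjusted p of a chaperone gene over them was 0.328, for Dnajb6 in DESeq2. In the fit with a replicate block, 0 were called higher and 0 lower, Dnajb6 had an adjusted p of 0.352 and Hspa9 of 0.379, and the block changed no call. The inducible gene Dnajb1 was at 0.62 in that fit, with an edgeR unadjusted p of 0.0376 and an adjusted p of 0.427, where 5.59% of all genes were higher at an unadjusted p under 0.05. At that level Dnajb6 stood in 11 of the 12 alternatives, Hspa9 in 8 and Dnajb1 in 2. Under other tools and scalings, no filter or the replicate block, 2 to 3 chaperone genes reached that level with a higher value in PTZ and 0 with a lower one, where 2.39% to 5.59% and 2.18% to 5.31% of all genes did. With libraries left out it was 1 to 3 genes with a higher value and 0 to 3 with a lower one, where 2.54% to 4.57% and 1.88% to 6.48% of all genes did. The median over all 39 genes ran from 0.04 without PTZ-1 to 0.21 without PTZ-4. Medians of small sets moved as well: with libraries left out, that of the small heat shock proteins ran from 0.15 to 0.88, of Hsp70 and Hsp110 from -0.14 to 0.09, of Hsp90ab1 and its cochaperones from -0.24 to 0.19, of the mitochondrial chaperones from -0.32 to 0.0039 and of the heat shock factors from 0.30 to 0.97. Signs turned for values near 0 or resting on few libraries. Under the authors' scaling Hsp90aa1 was -0.0243 and Hsp90ab1 -0.038, and without the low-count filter they were -0.0050 and -0.0211. With libraries left out, the log2 fold change ran from -0.28 to 1.21 for Hspa1a, -0.16 to 0.15 for Hsp90aa1, -0.54 to 0.97 for Hspb1, -0.0398 to 0.17 for Dnajb4, -0.28 to 0.34 for Hsp90ab1, -0.34 to 0.0039 for Hspe1, -0.38 to 0.88 for Cryab and -0.0204 to 0.29 for Hspb8. Others kept their sign but moved by over 1.5 times: 0.04 to 0.27 for Bag3, 0.41 to 1.17 for Hspb6, 0.16 to 0.61 for Hsf1, 0.45 to 1.34 for Hsf2, 0.19 to 0.41 for Fkbp4, -0.51 to -0.25 for Ahsa1 and -0.25 to -0.0084 for Cct7. Dnajb6 (0.51 to 0.67) and Hspa9 (0.40 to 0.67) moved less. The cause was not tested. No scaling moved the median of all genes by over 0.1. The largest shift, -0.0687 under the authors' scaling, took it from 0.03 to -0.03. Under that scaling the median over the 39 chaperone genes was 0.07, beside 0.14 in the main fit. The shift is thus of the size of several set medians given above. Hspa1b and Hsf2 are limited by their read counts.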
